A study of Homo sapiens with 2 samples.

Results

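The genes described here encode the subunits of the mitochondrial respiratory chain and of ATP synthase, in HSC-3 cells treated with FIN56. They were chosen by gene symbol: genes starting with MT-ND, MT-CO, MT-CYB, MT-ATP, NDUFA, NDUFB, NDUFC, NDUFS, NDUFV, UQCR or ATP5, the COX4 to COX8 genes, SDHA, SDHB, SDHC, SDHD and CYC1, without assembly factors and pseudogenes. The group and its contrast of 13 mitochondrially encoded with nuclear encoded genes were selected with the counts and TPM of these 2 libraries already known, so the differences between the libraries are given as a description with no test. By this rule 102 of the 60616 genes in the tables were members, 13 on the mitochondrial genome and 89 in the nucleus. HSC-3 is an established HNSCC line, grown from a squamous carcinoma of the head and neck. A library of cells given 1 µM FIN56 for 48 h was set beside a library of cells given 0.1% DMSO, the solvent. Both came from the same line in the same medium with serum and antibiotics, and no genetic change is given for either. With 1 library per condition no difference has a replicate check, and every value below compares these libraries.

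The respiratory chain sits in the inner mitochondrial membrane. Complex I (NADH dehydrogenase) and complex II (succinate dehydrogenase) pass electrons to coenzyme Q, complex III passes them on to cytochrome c, and complex IV (cytochrome c oxidase) hands them to oxygen. The protons pumped on the way drive complex V, the ATP synthase. Complexes I, III, IV and V are each built from subunits of both genomes, whereas complex II is wholly nuclear encoded. Mitochondrial DNA is transcribed as long RNAs from both strands, and most messengers are released where the tRNAs between them are cut out. FIN56 is a ferroptosis inducer, known to lower the lipid peroxide reducing enzyme GPX4 and to deplete coenzyme Q.

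The libraries held 70184517 (DMSO) and 73062209 (FIN56) expected counts, which are the estimated numbers of fragments per gene. Levels are given in FPKM, fragments per kilobase of gene scaled to the depth of the library, and ratios are the FIN56 FPKM divided by the DMSO FPKM. Each interval is the exact 95% Clopper-Pearson interval of the ratio of expected counts scaled by the library totals. It covers counting error only, since PCR copies carry no molecular identifiers here and fragments need not be separate molecules. Where the estimated effective length of a gene differed between the libraries, its FPKM ratio can lie outside that interval. All 8 squamous keratinocyte markers examined were at 1 FPKM or more in both libraries, with KRT5 at 2078 and 1647 FPKM. Among leukocyte markers CD68, which other cell types also use, reached 1 FPKM (57.3 in DMSO and 24.6 in FIN56), PTPRC and CD3E were listed at 0, and none of 3 fibroblast and 3 endothelial markers reached 1 FPKM. Of the 102 members, 94 reached 1 FPKM in both libraries, namely all 13 mitochondrially encoded and 81 nuclear encoded genes.

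All 13 mitochondrially encoded messengers were higher in the FIN56 library, and each interval lay above 1. Among all 12638 genes at 1 FPKM or more in both libraries, 53.5% were higher and 46.1% lower in FIN56, and the interval lay above 1 for 38.0% and below 1 for 35.9%. The ratios of the 13 ran from 1.04 for MT-CO3 to 1.34 for MT-CYB, with a median of 1.23, or 0.29 on the log2 scale. The 81 nuclear encoded members had a median ratio of 0.988 (-0.018 on the log2 scale), and those 12638 genes had a median of 1.02 (0.028 on the log2 scale). The 13 genes together held 3.83% of the expected counts in DMSO (exact binomial 95% interval 3.83% to 3.84%) and 4.63% in FIN56 (4.63% to 4.64%). By TPM, which divides by length and then scales each library to the same sum, the share was 7.33% in DMSO and 8.96% in FIN56. The nuclear members held 2.29% of TPM in both. In bulk RNA, more of these messengers in each cell and more cells rich in them cannot be told apart.

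Neighbouring genes on the mitochondrial genome differed in ratio, and the sequences at the gene borders from MT-CO2 to MT-ND4 are shown because the smallest ratios fell within that stretch. They are the GRCh38 reference, plus strand, from 12 bases before the marked feature to 12 bases after it, and not reads of HSC-3 cells. MT-CO2 (chrM:7586-8269) and MT-ATP8 (chrM:8366-8572) are parted by the lysine tRNA MT-TK, in capitals in chrM:8283-8377. MT-ATP8 and MT-ATP6 (chrM:8527-9207) overlap by 46 bases, in capitals in chrM:8515-8584. MT-ATP6 and MT-CO3 (chrM:9207-9990) share 1 base, in capitals in chrM:9195-9219, with no tRNA between them. MT-CO3 and MT-ND3 (chrM:10059-10404) are parted by the glycine tRNA MT-TG, in capitals in chrM:9979-10070. MT-ND4L (chrM:10470-10766) and MT-ND4 (chrM:10760-12137) overlap by 7 bases, in capitals in chrM:10748-10778.
MT-CO2 to MT-ATP8: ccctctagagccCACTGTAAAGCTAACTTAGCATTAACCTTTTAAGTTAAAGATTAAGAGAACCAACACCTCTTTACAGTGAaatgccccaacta
MT-ATP8 and MT-ATP6: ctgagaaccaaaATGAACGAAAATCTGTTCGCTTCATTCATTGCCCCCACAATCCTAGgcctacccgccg
MT-ATP6 and MT-CO3: cgacaacacataAtgacccaccaat
MT-CO3 to MT-ND3: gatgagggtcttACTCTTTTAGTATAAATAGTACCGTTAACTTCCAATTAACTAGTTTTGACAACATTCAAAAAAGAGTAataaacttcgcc
MT-ND4L and MT-ND4: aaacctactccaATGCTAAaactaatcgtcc

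The run without a tRNA, MT-ATP8, MT-ATP6 and MT-CO3, held the 3 lowest ratios of the 13 genes. MT-ATP8, a small membrane subunit of ATP synthase, was at 3869 FPKM in DMSO and 4426 in FIN56, a ratio of 1.14 (1.13 to 1.16). MT-ATP6, the subunit of the proton channel, was at 5182 and 5796 FPKM, a ratio of 1.12 (1.11 to 1.12). MT-CO3, a core subunit of cytochrome c oxidase, was at 7363 and 7651 FPKM, a ratio of 1.04 (1.03 to 1.04). The median ratio of these 3 genes was 1.12, and that of the other 10 was 1.25. This grouping was made after the values were seen. The interval of MT-ND1 (1.14 to 1.16) overlapped that of MT-ATP8, and the ribosomal RNA MT-RNR1 had a ratio of 1.12. MT-ND4L and MT-ND4, which also have no tRNA between them, had ratios of 1.2 and 1.23. MT-ATP8 is short, with an effective length of 108 bases, so its FPKM level depends strongly on the assumed fragment length, although its ratio does not, and where messengers overlap the expected counts rest on how the estimation shared fragments between them.

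The protein coding genes before and after that run had larger ratios. MT-CO1 (chrM:5904-7445), the catalytic subunit of cytochrome c oxidase, was the most abundant member in both libraries, at 8253 FPKM in DMSO and 10101 in FIN56, a ratio of 1.22 (1.22 to 1.23). MT-CO2, which takes electrons from cytochrome c, was at 6656 and 8610 FPKM, a ratio of 1.29 (1.29 to 1.3). MT-CO1, MT-CO2 and MT-CO3, the core of 1 enzyme, therefore had ratios of 1.22, 1.29 and 1.04 with intervals that did not overlap. MT-CYB (chrM:14747-15887), cytochrome b of complex III and the last protein coding gene on its strand, was at 2240 and 2999 FPKM and had the largest ratio, 1.34 (1.33 to 1.35).

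The 7 mitochondrially encoded subunits of complex I, which form its membrane arm, had a median ratio of 1.24. MT-ND1 (chrM:3307-4262) was at 1484 FPKM in DMSO and 1710 in FIN56, a ratio of 1.15 (1.14 to 1.16). MT-ND2 (chrM:4470-5511) was at 1881 and 2328 FPKM, a ratio of 1.24 (1.23 to 1.25). MT-ND3 was at 2579 and 3253 FPKM, a ratio of 1.262 (1.25 to 1.28). The next pair had ratios below that of MT-ND3. MT-ND4L was at 3429 and 4115 FPKM, a ratio of 1.2 (1.19 to 1.21). MT-ND4, whose frame overlaps it, was at 4109 and 5041 FPKM, a ratio of 1.23 (1.22 to 1.23). The ratios of MT-ND5 and MT-ND6 were higher than those of the other subunits of this group. MT-ND5 (chrM:12337-14148) was at 966 and 1266 FPKM, a ratio of 1.31 (1.301 to 1.32). MT-ND6 (chrM:14149-14673), the only messenger from the other strand, was at 997 and 1305 FPKM, a ratio of 1.31 (1.29 to 1.33). Whether reads were counted by strand is not given in the sources used here, so reads of MT-ND6 and of RNA opposite to it cannot be told apart.

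**Figure D1:**
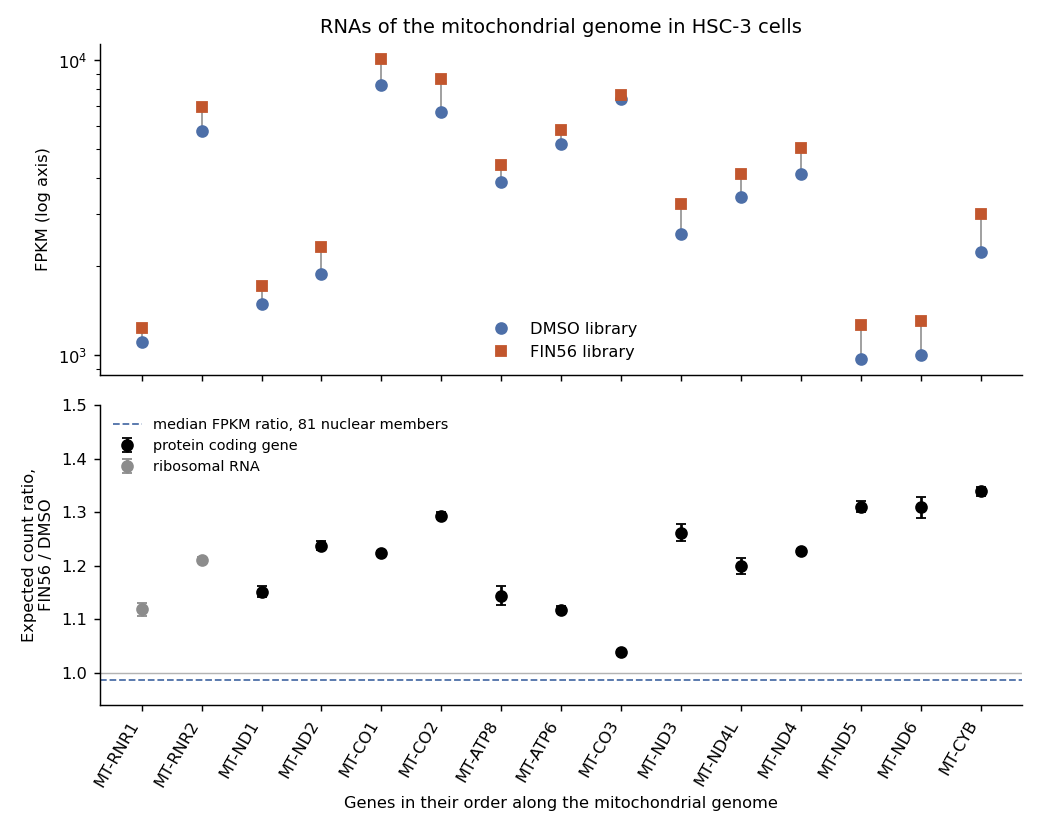
RNAs of the mitochondrial genome in map order, with FPKM in the DMSO library (circles) and the FIN56 library (squares) on a log axis above, and the expected count ratio with its exact 95% counting interval below (black, protein coding; grey, ribosomal RNA). All 13 protein coding genes sit above 1, MT-CO3 is lowest at 1.04, MT-CYB is highest at 1.34, and the dashed line is the median FPKM ratio of the 81 nuclear members, 0.988.

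The other RNAs of the mitochondrial genome were also higher in the FIN56 library. The ribosomal RNA MT-RNR1 was at 1108 FPKM in DMSO and 1240 in FIN56, a ratio of 1.12 (1.11 to 1.13). MT-RNR2, the larger ribosomal RNA, was at 5751 and 6966 FPKM, a ratio of 1.21 (1.21 to 1.22). The library kit selects RNA by its poly(A) tail, so RNAs with short or no tails, ribosomal RNAs or MT-ND6 included, may be captured only in part. Tails were not measured, so these levels need not be the full levels of each RNA. The 22 mitochondrial tRNA genes held 68 expected counts in DMSO and 72 in FIN56 in all. Nuclear copies of mitochondrial genes can take some of the same reads. Of 402 such copies, 5 reached 1 FPKM in both libraries, and the most abundant, MTATP6P1, was at 729 and 840 FPKM, a ratio of 1.15 (1.13 to 1.17). MTATP6P1 thus had a ratio a little above that of MT-ATP6, 1.12 (1.11 to 1.12), and the counting intervals did not overlap. Adding the counts of all copies to the 13 genes gave shares of 3.88% and 4.69%.

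In fold terms no mitochondrially encoded gene reached the 1.5-fold that the study used as its criterion. At 1.2-fold, 8 of the 13 were higher in FIN56 (61.5%), and none was lower. Among all genes at 1 FPKM or more in both libraries, 21.2% were past 1.2-fold higher and 21.3% past 1.2-fold lower, and 3.87% were past 1.5-fold higher and 6.77% past 1.5-fold lower. Among all 24454 genes above 0 in both, which include genes with few reads, the shares were 28.2% and 29.7% at 1.2-fold and 14.7% and 17.3% at 1.5-fold. Of the 81 nuclear members 1 was past 1.2-fold higher (1.23%) and 12 were past 1.2-fold lower (14.8%). None was past 1.5-fold higher and 2 were past 1.5-fold lower, UQCRC2 and ATP5MC1.

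On the log2 scale the mitochondrial median exceeded the nuclear median by 0.31 and the median of all genes by 0.27, whereas the nuclear median was 0.046 below that of all genes. No nuclear member had a ratio above the mitochondrial median. Of the nuclear members 9 exceeded MT-ATP6 and 28 exceeded MT-CO3, and 8 of the 13 mitochondrially encoded genes exceeded NDUFAB1, the highest nuclear member. Levels per length differed far more than ratios. The median mitochondrially encoded gene was at 3429 FPKM in DMSO and 4115 in FIN56, and the median nuclear member at 148.7 and 147.4, so that the first was 23.1 times the second in DMSO and 27.9 times in FIN56. The sign of the nuclear median was not stable, since it was 0.013 with TPM, 0.0067 with rlog values, 0.015 with DESeq2 size factors and 0.012 after centring by gene length. All 13 mitochondrially encoded genes kept a positive log2 ratio under the 8 scalings compared, 33 of the nuclear members were positive and 35 negative in all of them, and 13 changed sign.

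**Figure D2:**
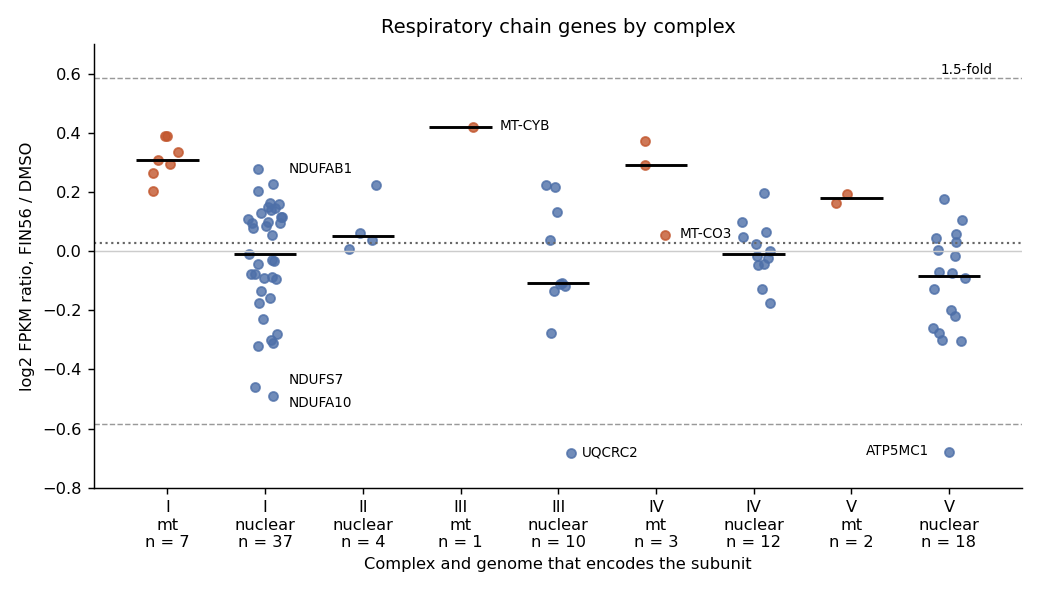
Log2 FPKM ratio (FIN56 over DMSO) of each member at 1 FPKM or more in both libraries, by complex and encoding genome (orange, mitochondrial; blue, nuclear); black bars are medians, the dotted line is the median of all genes (0.028) and the dashed lines mark 1.5-fold. The mitochondrially encoded subunits of each complex lie above the median of its nuclear encoded subunits, and UQCRC2 and ATP5MC1 lie past 1.5-fold lower.

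In complex I the nuclear encoded core subunits, which carry the flavin and the iron-sulfur clusters, were lower more often than the supernumerary subunits around them. Of 7 core subunits 6 were lower in the FIN56 library, against 46.1% of all genes, with a median ratio of 0.896. Of 30 supernumerary subunits 17 were higher, near the 53.5% of all genes, with a median of 1.06. Counting intervals lay below 1 for 5 of the 7, against 35.9% of all genes, and above 1 for 16 of the 30, against 38.0%. NDUFV1, which binds NADH and the flavin, was at 149.8 FPKM in DMSO and 121.7 in FIN56, a ratio of 0.813 (count interval 0.743 to 0.784). NDUFS8 was at 199.8 and 164.6 FPKM, a ratio of 0.824 (0.825 to 0.883). NDUFS7, which holds the last cluster before coenzyme Q, was at 43.4 and 31.6 FPKM, a ratio of 0.728. Its counts, 2176 and 1849, gave a smaller difference, a ratio of 0.816 (0.767 to 0.869), because its effective length was 715 bases in DMSO and 802 in FIN56 by the authors' estimate. NDUFS1, the largest core subunit, was the exception at 31.96 and 34.1 FPKM, a ratio of 1.07 (1.03 to 1.103). The core and supernumerary medians were compared after the values were seen.

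The supernumerary subunits of complex I ran from 0.712 to 1.21. NDUFA10 (chr2:239892450-240025743) was lowest, at 43.1 FPKM in DMSO and 30.7 in FIN56, a ratio of 0.712 (count interval 0.657 to 0.715). NDUFA5 and NDUFA7 were the other supernumerary subunits past 1.2-fold lower, at ratios of 0.807 and 0.801. At the other end NDUFAB1, the mitochondrial acyl carrier protein, was at 109.8 and 133.1 FPKM, a ratio of 1.21 (1.16 to 1.259). NDUFAB1 also serves fatty acid and lipoic acid synthesis, so its messenger is not that of a complex I protein alone. NDUFS6 followed at 299.5 and 350.2 FPKM, a ratio of 1.17 (1.14 to 1.202). NDUFS5, the most abundant nuclear messenger of complex I in DMSO, was at 351.2 and 343.3 FPKM, a ratio of 0.977 (0.949 to 1.00). Over all 37 nuclear subunits of complex I, 18 were higher and 19 lower, against 53.5% and 46.1% of all genes. Their median ratio was 0.994.

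Complex II, with no mitochondrially encoded part, had a median ratio of 1.04 by FPKM (0.051 on the log2 scale) and of 0.017 on the log2 scale by counts. Its 4 subunits all had FPKM ratios above 1, against 53.5% of all genes. SDHA, the flavoprotein that oxidizes succinate, was at 70.9 FPKM in DMSO and 74.0 in FIN56, a ratio of 1.04 by FPKM and 1.00 by counts (0.971 to 1.03). SDHB, the iron-sulfur subunit, was at 143.5 and 147.4 FPKM, a ratio of 1.03 (0.988 to 1.05). SDHC, a membrane anchor, was at 102.4 and 119.5 FPKM, a ratio of 1.17 (1.09 to 1.15). SDHD, the other anchor, was at 62.3 and 62.6 FPKM, a ratio of 1.01 (0.969 to 1.05). Only the interval of SDHC lay above 1, and for the other 3 no difference was detectable at this depth.

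Complex III held the largest gap between its mitochondrially encoded and nuclear encoded subunits. MT-CYB was at 1.34, and the median of the 10 nuclear genes was 0.927. UQCRC2 (chr16:21953288-21983660), a core protein facing the matrix, was the lowest of all members, at 83.8 FPKM in DMSO and 52.2 in FIN56, a ratio of 0.623. Its expected counts were 8165 and 4986, a ratio of 0.587 (0.566 to 0.608). UQCRC1, its partner core protein, was at 113.9 and 94.1 FPKM, a ratio of 0.826 (0.802 to 0.848). Both core proteins were thus past 1.2-fold lower, and no other gene of the complex was. CYC1, cytochrome c1, was at 113.2 and 103.2 FPKM, a ratio of 0.912 (0.893 to 0.949). UQCRFS1, the Rieske iron-sulfur protein, was at 21.2 and 21.8 FPKM, a ratio of 1.03 (0.985 to 1.07). UQCRH, the most abundant nuclear messenger of the complex, was at 396.8 and 367.5 FPKM, a ratio of 0.926 (0.897 to 0.943). UQCR11 was the highest nuclear gene, at 116.0 and 135.5 FPKM, a ratio of 1.17 (1.13 to 1.22). UQCRHL, an intronless copy of UQCRH, was at 1.23 and 1.43 FPKM with a counting interval of 0.946 to 1.42, and could share reads with UQCRH.

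In complex IV no nuclear gene at 1 FPKM or more was past 1.2-fold. The 12 at 1 FPKM or more in both libraries had ratios from 0.886 to 1.14, with a median of 0.994. COX7C, its most abundant nuclear messenger in DMSO, had the lowest ratio, at 711.4 FPKM in DMSO and 630.2 in FIN56 (count interval 0.862 to 0.8998). COX4I1, the subunit that responds to ATP, was at 375.8 and 344.2 FPKM, a ratio of 0.916 (0.918 to 0.960). COX6C was at 299.7 and 321.0 FPKM, a ratio of 1.07 (1.03 to 1.101). NDUFA4, named for complex I but found in cytochrome c oxidase, was the highest at 174.0 and 199.2 FPKM, a ratio of 1.14. Its counts gave 1.04 (1.02 to 1.07), and NDUFA4 and NDUFS7 were the only members at 1 FPKM or more in both libraries whose FPKM and count ratios were over 0.1 apart on the log2 scale.

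Of the paired isoforms of complex IV, these cells used the widely expressed forms. COX4I1, COX6A1, COX6B1, COX7A2, COX7B and COX8A ran from 224.7 to 653.1 FPKM in DMSO, and their ratios lay between 0.916 and 1.05. COX4I2, COX6A2 and COX7B2 were listed at 0 in both libraries. COX7A1 held 3 expected counts in DMSO and 0 in FIN56, and COX8C held 0 and 1, too few to compare. COX6B2, mainly a testis form, held 60.4 and 50.3 expected counts (interval of the ratio 0.539 to 1.18). NDUFA4L2, a hypoxia responsive relative of NDUFA4, held 54 and 38 (0.434 to 1.04). For neither was a difference detectable at this depth. COX7A2L, which joins complexes III and IV into a supercomplex, was at 82.7 and 80.0 FPKM, a ratio of 0.967 (0.942 to 1.01).

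In complex V the median ratio of the 18 nuclear genes was 0.944, and 12 of them were lower with intervals below 1, against 35.9% of all genes. The genes for the c ring, the rotor that protons turn, had ratios below 1 for all 3, against 46.1% of all genes. Their median was 0.809. Their mature proteins are identical, and the genes differ in the targeting peptide. ATP5MC1 (chr17:48892765-48895871) was at 163.8 FPKM in DMSO and 102.3 in FIN56, a ratio of 0.625 (count interval 0.620 to 0.679). ATP5MC2 was at 167.4 and 135.5 FPKM, a ratio of 0.809 (0.783 to 0.842). ATP5MC3, the most abundant of the set, was at 210.6 and 197.6 FPKM, a ratio of 0.938 (0.906 to 0.955). Summed over the c ring genes, 541.8 FPKM in DMSO stood against 435.4 in FIN56.

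The catalytic head of ATP synthase had ratios nearer to 1. ATP5F1B, the catalytic beta subunit and the most abundant nuclear messenger of the complex per length, was at 497.0 FPKM in DMSO and 498.4 in FIN56, a ratio of 1.00 (0.997 to 1.02). ATP5F1A, the alpha subunit, was at 127.0 and 116.3 FPKM, a ratio of 0.916 (0.887 to 0.927). ATP5F1C, the gamma subunit of the central stalk, was at 215.1 and 177.7 FPKM, a ratio of 0.826 (0.819 to 0.860). ATP5F1D, the delta subunit of the same stalk, was on the other side of 1, at 86.9 and 93.4 FPKM and a ratio of 1.07 (1.04 to 1.13). In the peripheral stalk ATP5PD was the highest nuclear gene of the complex, at 277.8 and 314.1 FPKM, a ratio of 1.13 (1.11 to 1.17). ATP5IF1, the inhibitor that stops ATP synthase from running backwards, was at 240.1 and 194.9 FPKM, a ratio of 0.812 (0.796 to 0.851). ATP5MGL, a copy of ATP5MG, held 0.39 and 2.01 expected counts and is not compared.

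**Figure D3:**
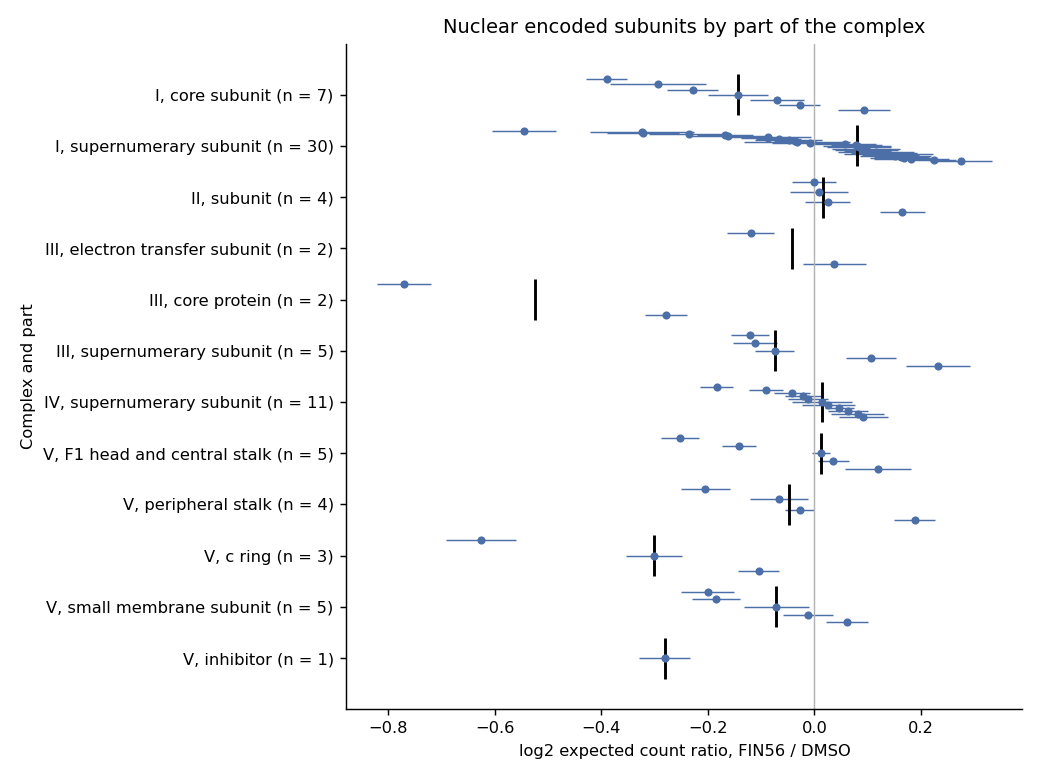
Log2 expected count ratio (FIN56 over DMSO) of the nuclear encoded members at 1 FPKM or more in both libraries, by complex and part; UQCRHL and COX7A2L are not drawn. Points are genes with exact 95% counting intervals and black bars are medians. The core proteins of complex III, the c ring genes and ATP5IF1 lie wholly to the left of 0, and most core subunits of complex I do so too.

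The nuclear members are spread over 22 chromosomes, and some of their promoters hold short motifs that the choice of members did not use. The start region of each gene, 250 bases before to 50 after the start in RefSeq (GRCh38.p14), was available for 70 of the 89, and motifs were searched on both strands. The NRF1 core GCATGCGC was in 13 of the 70 (18.6%), against 3.27% of all 27305 promoters, which were not limited to genes expressed in these cells. The ETS core CCGGAAG, read by GABPA, was in 20 (28.6%), against 10.7% of all. The YY1 core ATGGCGGC was in 12 (17.1%), against 3.21%. NRF1, GABPA and YY1 are transcription factors known for driving respiratory genes, and none of the motifs contains another. Among the 12 nuclear members past 1.2-fold lower, NRF1 letters were in 3, YY1 letters in 3 and ETS letters in 0. The cAMP response element TGACGTCA, searched after these promoters had been read, was in 5 of the 70 (7.14%, against 1.98% of all). The 5 were ATP5MC1, NDUFA10, ATP5ME, NDUFB2 and SDHB, with FPKM ratios of 0.625, 0.712, 0.951, 0.886 and 1.03. Because the element was chosen after reading, its presence in ATP5MC1 and NDUFA10 is a description only, and a link to their ratios was not tested. These are matches of letters, and no binding was measured.

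The 150 bases before the RefSeq start are shown for the 3 nuclear members with the lowest ratios. They are UQCRC2 (chr16:21953211-21953360, plus strand), ATP5MC1 (chr17:48892637-48892786, plus strand) and NDUFA10 (chr2:240025343-240025492, minus strand), from RefSeq, GRCh38.p14, in the direction of the gene. The gene borders given earlier are those of GENCODE v44, which starts all 3 genes further upstream. The NDUFA10 window therefore lies wholly, and the UQCRC2 and ATP5MC1 windows partly, within the GENCODE gene. Capitals mark matches to the letters above, and UQCRC2 has none in this window.
UQCRC2: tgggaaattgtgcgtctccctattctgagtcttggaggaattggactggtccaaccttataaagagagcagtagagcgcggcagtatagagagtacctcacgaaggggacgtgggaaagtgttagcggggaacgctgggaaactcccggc
ATP5MC1: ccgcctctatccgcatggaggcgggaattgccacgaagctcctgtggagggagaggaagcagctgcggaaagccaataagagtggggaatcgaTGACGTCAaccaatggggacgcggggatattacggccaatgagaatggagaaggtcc
NDUFA10: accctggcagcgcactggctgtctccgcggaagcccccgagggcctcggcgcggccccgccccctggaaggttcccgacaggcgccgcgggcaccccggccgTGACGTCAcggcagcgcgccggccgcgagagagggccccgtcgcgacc

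Genes that keep and express mitochondrial DNA are nuclear encoded, and are given here by list. Of 11 genes of mitochondrial DNA maintenance 8 were higher by FPKM, against 53.5% of all genes, with a median ratio of 1.18. By FPKM 4 (36.4%) were past 1.2-fold higher and none past 1.2-fold lower, against 21.2% and 21.3% of all genes. By counts the intervals of 6 lay above 1 and those of 2 below it, against 38.0% and 35.9% of all genes. POLG, the polymerase of mitochondrial DNA, was among those below 1, at 1.02 by FPKM and 0.863 by counts (0.819 to 0.909). RRM2B, a ribonucleotide reductase subunit, was at 1.36 by FPKM and 1.19 by counts. TFAM, which packages mitochondrial DNA and starts its transcription, was the highest of them at 51.6 FPKM in DMSO and 73.2 in FIN56, a ratio of 1.42 by FPKM and 1.32 by counts (1.28 to 1.36). POLG2, the accessory subunit of the mitochondrial DNA polymerase, was the lowest, a ratio of 0.862 (0.814 to 0.945). The 10 transcription genes, which include TFAM and TWNK of the first list, had 4 past 1.2-fold higher (40%) and 3 past 1.2-fold lower (30%). MTERF2, a mitochondrial transcription factor of the MTERF family, was at 6.21 and 3.85 FPKM, a ratio of 0.620 (0.545 to 0.688), and was the gene of the list past 1.5-fold. The polymerase itself, POLRMT, was at 9.75 and 10.6 FPKM, a ratio of 1.09 (1.04 to 1.17).

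Of 20 genes for processing and stability of mitochondrial RNA, 8 (40%) were past 1.2-fold higher by FPKM and 1 (5%) past 1.2-fold lower. The shares of all genes were 21.2% and 21.3%, and the median ratio of the 20 was 1.08. By counts PTCD1 and PTCD2 fell short of 1.2-fold higher, at 1.12 and 1.06, and REXO2 was past 1.2-fold lower, at 0.809. Intervals lay above 1 for 9 of the 20 and below 1 for 6, against 38.0% and 35.9% of all genes. MTPAP, the mitochondrial poly(A) polymerase, was the highest at 9.13 FPKM in DMSO and 17.0 in FIN56, a ratio of 1.86 by FPKM and 1.62 by counts (1.53 to 1.71). PRORP, the nuclease that cuts tRNAs at their leading end, was at 19.9 and 29.6 FPKM, a ratio of 1.48 by FPKM with a count interval of 1.201 to 1.32. SUPV3L1, the helicase of the mitochondrial RNA degrading complex, was at 23.1 and 33.1 FPKM, a ratio of 1.43 (1.41 to 1.54). FASTK was the lowest at 28.9 and 20.9 FPKM, a ratio of 0.724 (0.684 to 0.766). LRPPRC and SLIRP, the pair that binds and steadies mitochondrial messengers, had ratios of 1.08 and 0.875. The part of these genes in the levels of the 13 messengers was not tested.

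**Figure D4:**
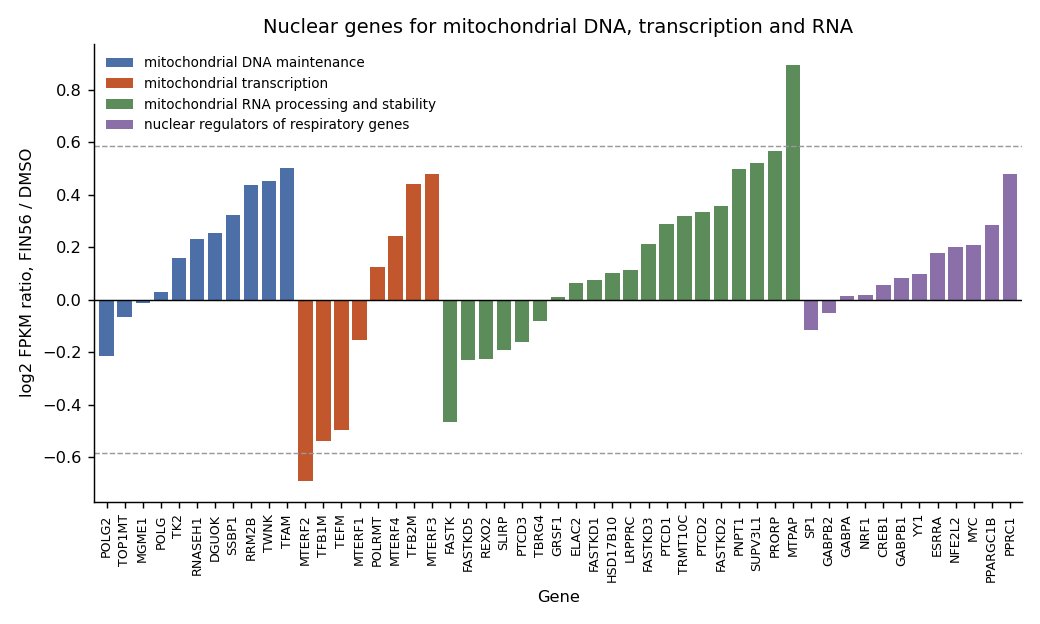
Log2 FPKM ratio (FIN56 over DMSO) of nuclear genes for mitochondrial DNA maintenance (blue), transcription (orange), RNA processing and stability (green) and of regulators of respiratory genes (purple), at 1 FPKM or more in both libraries; genes on more than 1 list are drawn once and dashed lines mark 1.5-fold. MTPAP is past 1.5-fold higher, with a ratio of 1.86, and MTERF2 past 1.5-fold lower, with a ratio of 0.620.

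Regulators of respiratory genes stayed closer to 1. Of the 14 listed 12 reached 1 FPKM in both libraries, and PPARGC1A, the best known coactivator of mitochondrial genes, was listed at 0 in both. PPRC1, a relative of PPARGC1A, was at 16.3 FPKM in DMSO and 22.8 in FIN56. Its ratio was the highest by FPKM, at 1.40, against 1.198 by counts (1.15 to 1.24). By counts PPARGC1B was the highest, at 1.25 (1.16 to 1.35) against 1.22 by FPKM. SP1 was the lowest by FPKM, at 0.923 against 0.964 by counts (0.937 to 0.991). By counts GABPB2 was the lowest, at 0.867 (0.793 to 0.948) against 0.966 by FPKM. NRF1 had a ratio of 1.01 (0.932 to 1.09) and GABPA 1.01 (0.955 to 1.07).

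Assembly factors, which help build the complexes without staying in them, had a wider range of ratios than the nuclear subunits, from 0.612 to 1.76. Of 18 for complex I, 4 (22.2%) were past 1.2-fold higher and 3 (16.7%) past 1.2-fold lower. These shares are near those of all genes at 1 FPKM or more in both libraries, 21.2% and 21.3%. NDUFAF1 was the highest at 8.58 FPKM in DMSO and 15.1 in FIN56, a ratio of 1.76 (1.61 to 1.94), while NDUFAF7 was the lowest at a ratio of 0.724. The 4 for complex II ran from 1.00 (SDHAF3) to 1.44 (SDHAF4), and the 6 for complex III from 0.843 (TTC19) to 1.29 (UQCC3). Of 23 for complex IV, 8 (34.8%) were past 1.2-fold higher and 3 (13%) past 1.2-fold lower, against the same 21.2% and 21.3% of all genes. Their median ratio was 1.12. COA5 was the highest by FPKM, at 1.4 against 1.24 by counts, and COA7 by counts, at 1.51 (1.44 to 1.58) against 1.36 by FPKM. SURF1, needed for heme insertion into MT-CO1, was at 33.5 and 20.5 FPKM, a ratio of 0.612 (0.569 to 0.652). PET100 was at 59.96 and 38.5 FPKM, a ratio of 0.641 by FPKM and 0.706 by counts (0.649 to 0.767). Of 5 for ATP synthase, TMEM242 was past 1.5-fold higher at 5.03 and 8.12 FPKM, a ratio of 1.61 (1.54 to 1.77), and ATPAF2 was lowest at 0.949.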

How the data were processed

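Poly(A) selected RNA of HSC-3 cells (TruSeq Stranded mRNA kit per the labels) was sequenced in 2 libraries. The study's methods, written for its tumor samples, and the submitters' processing notes name FastQC 0.11.7, STAR 2.6.1a, RSEM 1.3.1 with GRCh38 (Ensembl 94) and DESeq2 1.26.0. The authors deposited RSEM expected counts, FPKM and TPM per gene and log2 values from the DESeq2 rlog transform; no column lacked a sample. Members and gene lists were chosen with earlier results of these data known. Members were matched by symbol, MT-ATP6 and MT-ATP8 were kept although their names end in P and a digit, and NDUFA4 and NDUFA4L2 were placed in complex IV. All 102 symbols or their current names are in GENCODE v44 (GRCh38), the source of coordinates.

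FIN56/DMSO ratios of FPKM were computed over genes at 1 FPKM or more in both libraries, at 1.5-fold and 1.2-fold. Intervals are exact Clopper-Pearson limits of expected counts. Named genes were the 13 MT- genes, complex II and CYC1, the 2 highest, 2 lowest and most abundant nuclear members of each complex, members past 1.5-fold, isoform sets, and from each list those past 1.5-fold and its extremes; other names were added after their values were seen. No test was possible with 1 library per condition. Alternatives were other units, TMM (edgeR 4.0.16) and DESeq2 1.42.0 scaling of rounded counts, filters, pseudocounts of 0.1 and 1, 10 length bins and genes with whole expected counts (within 0.005). Scripts (Python 3.11.15, scipy 1.17.1, R 4.3.3) were tested on simulated data. RefSeq promoters were matched by symbol.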

Additional observations from a re-analysis of the deposited data

How the results depend on the processing

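The median log2 ratio of the 13 mitochondrially encoded genes (0.295) was 0.326 with TPM, 0.145 with rlog values, which shrink differences, 0.331 with DESeq2 size factors, 0.31 with totals that leave out mitochondrial genes, 0.309 after centring by effective length, 0.335 over the 5 with whole expected counts and 0.322 without MT-ATP8, MT-ATP6 and MT-CO3, the last chosen after seeing the data. Its excess over the nuclear median was 0.138 with rlog. Complex III (-0.109) was at -0.024 with rlog, -0.0568 with DESeq2 size factors and -0.276 over whole counts, complex V (-0.0831) at -0.0216 with rlog, and complex IV (-0.00914) at 0.037 with DESeq2 size factors. Members past 1.5-fold lower numbered 2, but 0 with rlog, 1 with whole counts, 0 at 2-fold and 3 with all genes above 0 FPKM or at least 50 counts. Those past 1.2-fold higher numbered 9, but 0 with rlog and 4 with whole counts; those past 1.2-fold lower numbered 12, but 1 with rlog, 7 with DESeq2 size factors and 7 with whole counts. With all genes above 0 FPKM, 1 member (ATP5MGL, 0.39 and 2.01 counts) was past 1.5-fold higher, against 0. The whole count setting keeps fewer members by construction; the cause of the other differences was not tested. Adding nuclear copies gave shares of 3.88% and 4.69%. TMM and library totals left 10 members past 1.2-fold lower, and the 50 count filter 14, and library totals put the complex IV median at 0.000703. A median was taken as unmoved if it shifted by less than the median log2 half-width of the single-gene count intervals. That is a lenient yardstick, the counting error of a typical gene and not of a median. Counts within 1.5 times the value in the report were also taken as unmoved. The median of all genes moved to at most 0.059 (TPM). No paired analysis was possible because the labels give 1 library to FIN56 and 1 to DMSO, and no replicate could be left out. Counting error was small for abundant messengers, so the unknown spread between cultures limits every comparison.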

Other observations

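Other genes that feed the respiratory chain are given here gene by gene. Of 10 electron carriers and other entry points, 8 reached 1 FPKM in both libraries, with a median ratio of 1.09 (FIN56 over DMSO). Past 1.2-fold higher were 2 of the 8 (25%), near the 21.2% of all genes at 1 FPKM or more in both. GPD2, which passes electrons from glycerol 3-phosphate to coenzyme Q, was at 20.9 FPKM in DMSO and 30.2 in FIN56. Its ratio was the highest by FPKM, at 1.44, against 1.34 by expected counts (exact 95% interval 1.299 to 1.38). DHODH, the pyrimidine synthesis enzyme that also reduces coenzyme Q, was at 4.6 and 6.24 FPKM. Its ratio was 1.36 by FPKM and the highest by counts, at 1.46 (1.31 to 1.62). CYCS, cytochrome c itself, was at 232.2 and 251.2 FPKM, a ratio of 1.08 (1.08 to 1.12). ETFDH, the entry point from fatty acid oxidation, was the lowest at a ratio of 0.941 (0.874 to 1.01).

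The 13 enzymes of the tricarboxylic acid cycle had a median ratio of 0.997, with 6 higher and 7 lower, against 53.5% and 46.1% of all genes. SUCLA2, the ATP forming subunit of succinyl-CoA ligase, was past 1.5-fold higher by FPKM, at 33.6 in DMSO and 53.6 in FIN56 (1.596), and under it by counts at 1.45 (1.39 to 1.504). SUCLG2, its GTP forming counterpart, was at 14.4 and 12.8 FPKM, a ratio of 0.889 (0.826 to 0.932). IDH3G was the lowest at 37.4 and 28.8 FPKM, a ratio of 0.769 (0.752 to 0.836). SDHA to SDHD, the cycle enzyme that is also complex II, are given above.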
